A study of Mus musculus with 8 samples.

Results

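The pluripotency factor genes *Pou5f1*, *Nanog*, *Sox2*, *Klf4*, *Myc*, *Mycn*, *Lin28a* and *Sall4* were taken by name, and their positions in the mouse genome build mm9 were read from the GENCODE vM1 annotation. They are 8 of 22367 protein-coding genes on chromosomes with peaks. Open chromatin was profiled with ATAC-seq, an assay whose Tn5 enzyme inserts sequencing adapters into accessible DNA. The study divided mouse bone marrow mesenchymal stromal cells into 7 sorted populations and asked how they differ in open chromatin. The data are peak lists of 7 libraries with the titles ATAC1 to ATAC7, each called against a single Input control.

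All 8 libraries carried the same labels, with C57BL/6J as the strain, wild type as the genotype, an age of 6 weeks after birth and stromal cells from bone marrow as the source. No treatment, transgene or deletion was labelled, and the number of animals behind a library was not given in the sources used here. The labels do not tie a title to a sorted population, so the libraries are called by their titles. They also describe an RNA extraction, which is at odds with a library of genomic DNA. Each title was 1 library, so no difference between libraries has a replicate check, and no p-value is given.

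Pou5f1 (Oct4), Nanog and Sox2 are the core transcription factors of embryonic stem cells, where they bind together and activate their own genes. Klf4 and the Myc proteins are transcription factors used with Pou5f1 and Sox2 to turn somatic cells into pluripotent ones, but unlike the core factors they also work in many adult tissues. Lin28a blocks maturation of let-7 microRNAs, and Sall4 is a zinc finger factor of early embryos and germ cells. In differentiated cells the genes of the core factors are usually silenced, often with methylated promoters.

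A start-site peak was a peak with at least 1 base within 1000 bases of any annotated transcript start of the gene. *Klf4* and *Myc* had one in all 7 libraries and *Mycn* in 6, all but ATAC7. *Pou5f1*, *Nanog*, *Sox2*, *Lin28a* and *Sall4* had none in any library. Thus 20 of 56 pairs of gene and library had a start-site peak, and no library was called at a start site of a core factor.

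**Figure D1:**
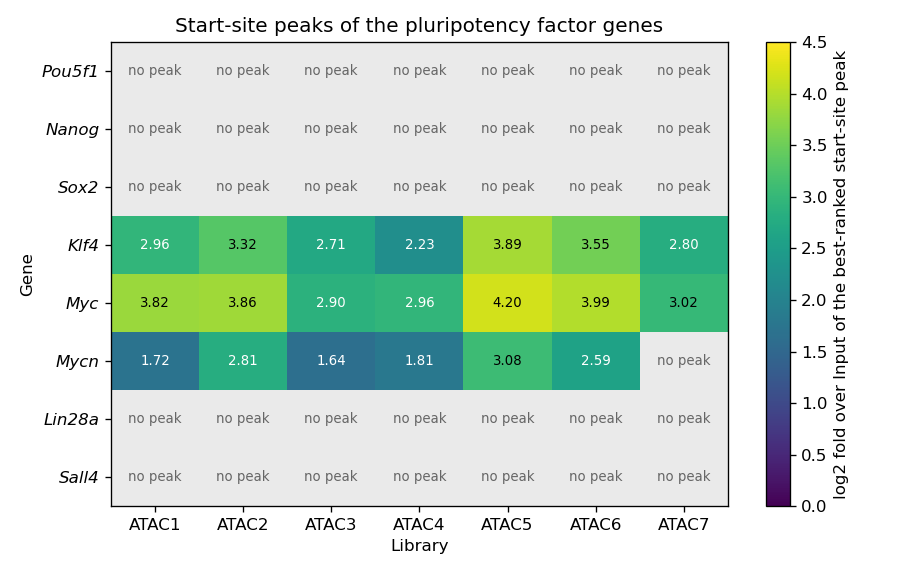
Start-site peaks of the 8 genes (vertical axis) in the 7 libraries (horizontal axis), coloured by the log2 fold over Input of the best-ranked peak. *Klf4*, *Myc* and *Mycn* fill 20 cells, between 1.64 for *Mycn* in ATAC3 and 4.2 for *Myc* in ATAC5, and the other cells have no called peak.

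By library, 3 of the 8 genes had a start-site peak in ATAC1 to ATAC6 and 2 in ATAC7. Among all protein-coding genes the share was 49.1% in ATAC1, 50.4% in ATAC2, 43.6% and 43.8% in ATAC3 and ATAC4, 52.9% and 51.7% in ATAC5 and ATAC6, and 42.1% in ATAC7. Of the 8 genes, 3 (37.5%) had one in at least 1 library against 56.9% of all protein-coding genes, and 2 (25%) had one in all 7 against 37.0%. The 5 genes without a call are therefore among the 9645 protein-coding genes (43.1%) without a start-site peak in any library.

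The peak tables list called peaks only. A gene without a peak is one with no listed peak near its start sites. Whether its region was below the authors' threshold cannot be read from the tables, and neither a read count nor an upper limit can be given for it. Genes used in every cell show how often a call can be missing. Among 9 of them, 61 of 63 pairs of gene and library had a start-site peak, and *Actb* and *Hsp90ab1* lacked one in ATAC5. In the other 6 libraries *Actb* had 1020 to 2595 reads and folds of 9.97 to 25.1 there. A strong start site can thus be missing from a single list, so an unlisted peak is no measure of closed chromatin, here or below.

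The labelled cell type was checked on marker lists, for which the background is the share of all genes per library given above. Each list had 20 genes. More stromal than haematopoietic markers had a start-site peak in ATAC2 (12 against 5), ATAC5 (12 against 10), ATAC6 (11 against 6) and ATAC7 (9 against 4). In ATAC1 (7 against 9), ATAC3 (5 against 8) and ATAC4 (4 against 6) the haematopoietic markers were more. In these 3 libraries the lists thus did not set the labelled stromal cells apart. By the CpG classes defined below, 5 stromal markers and 1 haematopoietic marker were high CpG, all with a peak in at least 1 library. Among low CpG markers, 8 of 15 stromal and 10 of 19 haematopoietic genes had one, against 29.2% of that class. The lists thus differ in CpG class, so a surplus of stromal markers is not by itself a sign of stromal cells. Endothelial markers with a peak numbered between 0 and 6. *Spi1*, a haematopoietic factor, was called in all 7 libraries, as were the stromal factors *Ebf3* and *Foxc1*. Which cells of a library gave the peaks at *Klf4*, *Myc* and *Mycn* was not tested.

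The sequences just upstream of the start sites are shown first, because the calls are set against base composition below. For each gene the 150 bases before the 5'-most protein-coding start are printed on the strand of the gene, from mm9, with every CpG in capitals. The 3 genes with peaks come first, followed by *Sox2*, *Pou5f1* and *Nanog* without peaks.
Klf4, chr4:55545348-55545497, minus strand: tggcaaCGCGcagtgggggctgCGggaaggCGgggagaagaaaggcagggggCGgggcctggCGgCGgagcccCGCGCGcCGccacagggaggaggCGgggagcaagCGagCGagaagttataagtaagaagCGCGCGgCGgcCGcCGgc
Myc, chr15:61816796-61816945, plus strand: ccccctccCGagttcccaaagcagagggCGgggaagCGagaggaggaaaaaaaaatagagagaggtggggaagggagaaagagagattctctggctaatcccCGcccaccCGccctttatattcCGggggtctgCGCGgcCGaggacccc
Mycn, chr12:12948721-12948870, minus strand: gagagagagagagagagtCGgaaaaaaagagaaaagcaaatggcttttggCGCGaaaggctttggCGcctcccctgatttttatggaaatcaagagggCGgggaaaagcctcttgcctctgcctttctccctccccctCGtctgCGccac
Sox2, chr3:34548777-34548926, plus strand: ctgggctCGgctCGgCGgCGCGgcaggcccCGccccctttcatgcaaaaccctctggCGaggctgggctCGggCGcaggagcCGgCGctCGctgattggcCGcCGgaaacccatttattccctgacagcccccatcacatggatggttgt
Pou5f1, chr17:35642832-35642981, plus strand: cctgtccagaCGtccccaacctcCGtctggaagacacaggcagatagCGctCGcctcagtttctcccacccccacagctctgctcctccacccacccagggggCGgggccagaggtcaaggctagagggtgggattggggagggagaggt
Nanog, chr6:122657357-122657506, plus strand: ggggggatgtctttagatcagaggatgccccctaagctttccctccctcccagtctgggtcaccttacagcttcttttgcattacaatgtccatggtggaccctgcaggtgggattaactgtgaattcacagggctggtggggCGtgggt

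The printed stretch of *Klf4* held 20 CpG, that of *Sox2* 14, that of *Myc* 9, that of *Mycn* 7, that of *Pou5f1* 5 and that of *Nanog* 1. Over 1000 bases around the start site, the ratio of observed to expected CpG was 0.959 at *Klf4*, 0.833 at *Sox2*, 0.831 at *Sall4*, 0.779 at *Myc* and 0.673 at *Mycn*. It was 0.373 at *Lin28a*, 0.335 at *Pou5f1* and 0.287 at *Nanog*. The first 5 genes, with a ratio of at least 0.6 and a GC content of at least 50%, were classed as high CpG, and the other 3 as low CpG.

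Of the 5 high CpG genes, 3 had a start-site peak in at least 1 library, and of the 3 low CpG genes, none. Among all genes of these classes the shares were 91.3% of 9970 high CpG genes and 29.2% of 12389 low CpG genes. In all 7 libraries, 2 of the 5 high CpG genes had one, against 68.0% of the class, and none of the 3 low CpG genes, against 12%. *Sox2* and *Sall4* therefore belong with the 8.71% of high CpG genes without a start-site peak throughout. *Pou5f1*, *Nanog* and *Lin28a* were in the state of 70.8% of low CpG genes.

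**Figure D2:**
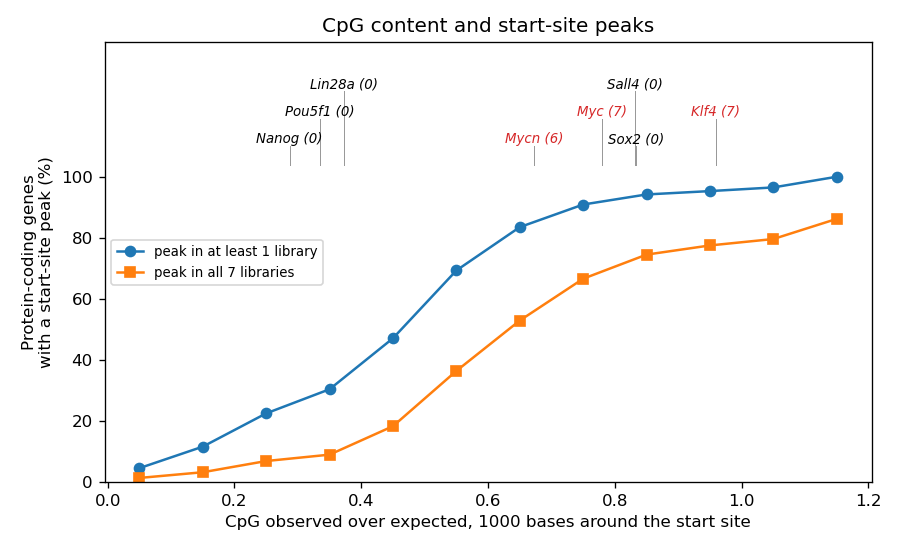
Share of protein-coding genes with a start-site peak (vertical axis, %) against the observed over expected CpG ratio in 1000 bases around the start site (horizontal axis), in bins. Blue circles are genes with a peak in at least 1 library and orange squares genes with one in all 7; lines above mark the 8 genes with their number of libraries, and *Sox2* and *Sall4* stand at 0 libraries among ratios where most genes had a peak.

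Short motifs were searched on both strands from 250 bases before to 50 bases after the start. The GC box GGGCGG, a site of Sp and Klf factors, matched 4 times at *Klf4*, 3 times at *Myc*, 2 times at *Mycn* and *Sox2* and 1 time at *Pou5f1*, and 44.0% of 22359 protein-coding promoters held it. The E-box CACGTG, the site of Myc with Max, matched 1 time at *Klf4* and at no other of the 8 genes, against 7.78% of promoters. The octamer ATGCAAAT of Pou factors matched at none, against 1.72% of promoters. Only exact matches were counted, so variant sites are not covered. The Sox core CATTGT matched 1 time at *Nanog* and at *Lin28a*, against 10.6%. The GC box is therefore found at genes with and without a peak.

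*Klf4* lies at chr4:55540013-55545347 on the minus strand. Its promoter peak, between 574 and 82 bases before the start site, was the best-ranked start-site peak in every library. The deposited fold is the scaled ratio of library reads to Input reads in a wider outer region around the peak. In ATAC1 the peak had 879 reads against 139 in Input, a fold of 7.77 (95% interval 6.49 to 9.36). ATAC2 had 715 against 113, a fold of 9.996 (8.19 to 12.3), and ATAC3 had 641 against 99, a fold of 6.53 (5.28 to 8.16). These intervals cover counting error only, and reads without molecular identifiers are not independent molecules.

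The lowest fold at the *Klf4* promoter was that of ATAC4, with 336 reads against 81 and a fold of 4.70 (3.68 to 6.06). The highest was that of ATAC5, with 1391 against 161 and a fold of 14.8 (12.6 to 17.5). ATAC6 had 872 against 117, a fold of 11.7 (9.67 to 14.4), and ATAC7 had 649 against 103, a fold of 6.96 (5.64 to 8.65). From low to high the order was ATAC4, ATAC3, ATAC7, ATAC1, ATAC2, ATAC6 and ATAC5, and each pair of neighbours overlapped in their intervals. The ends of the order did not overlap, and they differed by 3.15 times. Outer regions differed in length, from 700 bases in ATAC4 to 1868 bases in ATAC5, so read numbers are not counts over the same bases.

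The libraries also differed at start sites in general. Over all protein-coding genes with a start-site peak, the median fold of the best-ranked one was 8.63 in ATAC1, 8.73 in ATAC2 and 6.32 in ATAC4. It was 5.89 in both ATAC3 and ATAC7, the lowest, and 12.4 and 11.9 in ATAC5 and ATAC6, the highest. Set against these medians, *Klf4* lay between 0.743 and 1.2 times the median, above it in 4 libraries. The spread of *Klf4* folds over the libraries thus went along with that of all start sites, and the part of each was not tested.

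*Myc* lies at chr15:61816946-61821929 on the plus strand, and its best-ranked peak covered the start site in each library. ATAC1 had 505 reads against 44 in Input, a fold of 14.1 (10.4 to 19.7). ATAC2 had 725 against 79, a fold of 14.5 (11.5 to 18.5), and ATAC3 had 303 against 41, the lowest fold, at 7.45 (5.37 to 10.6). ATAC3 lay below ATAC2 without overlap of the intervals.

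ATAC4 had 295 reads against 43 at *Myc*, a fold of 7.77 (5.63 to 11). ATAC5 had 839 against 78, the highest fold, at 18.4 (14.6 to 23.5). ATAC6 had 668 against 66, a fold of 15.9 (12.4 to 20.8), and ATAC7 had 323 against 44, a fold of 8.10 (5.90 to 11.4). ATAC3, ATAC4 and ATAC7 were low, and ATAC1, ATAC2, ATAC6 and ATAC5 were high, with overlap of the intervals at each step of the order. *Myc* stood above the library's median in all 7 libraries, by 1.23 to 1.66 times, and between the 65.8 and 81.1 percentile of genes with a start-site peak.

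*Mycn*, the family member best known from embryonic and neural progenitors, lies at chr12:12942902-12948720 on the minus strand. Its best-ranked peak lay between 683 and 275 bases before the start. It had 83 reads against 31 in ATAC1, a fold of 3.29 (2.15 to 5.14), and 142 against 32 in ATAC2, a fold of 7.01 (4.75 to 10.6). ATAC3 had 99 against 32, a fold of 3.12 (2.08 to 4.81), and ATAC4 had 96 against 31, a fold of 3.51 (2.32 to 5.44). ATAC2 was thus above the other 3, and its interval overlapped with theirs only near the edges.

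Of the best-ranked *Mycn* peaks, that of ATAC5 had the highest fold, 8.46 (6.22 to 11.7), with 247 reads against 50. ATAC6 had 6.02 (4.10 to 9.06), with 130 against 34. Start-site peaks of lower rank reached a fold of 9.75 in ATAC5 and 9.23 in ATAC2. ATAC7 had no peak within 20 kb, and its nearest peak was 638504 bases from a start site of the gene. The best-ranked *Mycn* peak stayed below the median start-site fold in each of the 6 libraries, at 0.381 to 0.803 times the median and between the 3.23 and 34.8 percentile. Among 8677 genes called in the other 6 libraries, 400 (4.61%) had no start-site peak in ATAC7, the largest such share of the 7 libraries, and *Mycn* is 1 of them. ATAC7 also had the shortest peak list. With a fold of at least 5 required, *Mycn* was called in 3 libraries, ATAC2, ATAC5 and ATAC6, and ATAC4 kept *Myc* alone of the 8 genes.

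**Figure D3:**
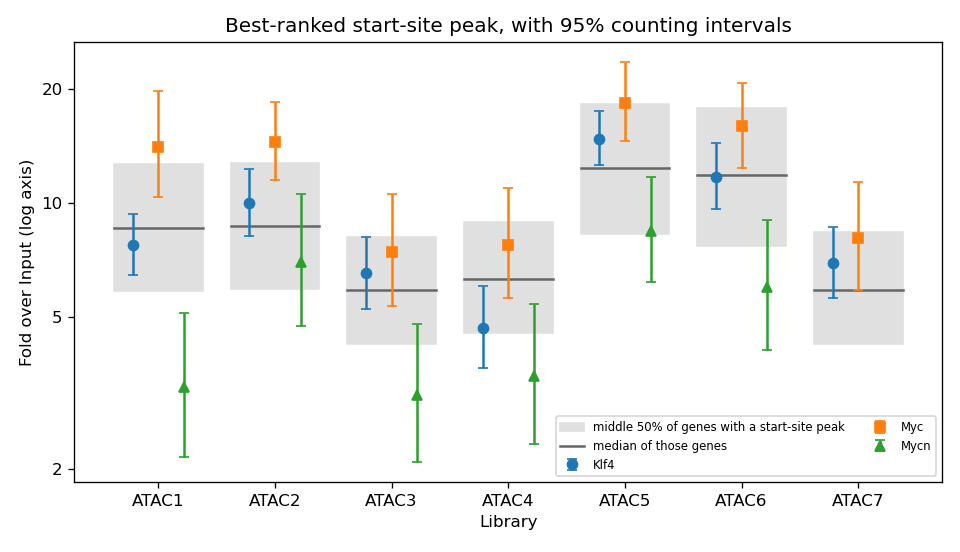
Fold over Input (vertical log axis) of the best-ranked start-site peak of *Klf4*, *Myc* and *Mycn* in each library (horizontal axis), with 95% counting intervals as bars; grey boxes hold the middle 50% of all protein-coding genes with a start-site peak and the grey line is their median. *Myc* is above the line in 7 libraries, *Klf4* in 4 and *Mycn* in none of the 6 where it had a peak.

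Over the 7 libraries, the protein-coding genes nearest to each in log2 fold of the best start-site peak, with 0 for no peak, were listed. They were *Pdcd6ip* and *G630090E17Rik* for *Klf4*, with mean absolute differences of 0.08 and 0.10. For *Myc* they were *Gtf2b* and *Abi1*, with 0.06 and 0.08, and for *Mycn* *Uba2* and *Klhdc1*, with 0.11 and 0.12. Over all genes the median difference was 2.16 for *Klf4*, 2.55 for *Myc* and 1.91 for *Mycn*. The named genes were picked for the smallest differences, so the gap to these medians follows from the choice.

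Within 20 kb of the genes, 36 of 56 pairs of gene and library had a peak. The 4 genes *Pou5f1*, *Klf4*, *Myc* and *Lin28a* had one in all 7 libraries, against 53.1% of protein-coding genes, and 7 of the 8 had one in at least 1 library, against 74.5%. In all there were 98 such peaks, 53 of them at start sites of the 8 genes. They merged into 26 regions, 21 of them near *Klf4*, *Myc* or *Mycn*.

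Of the 26 regions, 6 (23.1%) were called in all 7 libraries, against 16.6% of 50683 regions in the genome. A further 3 (11.5%) were called in exactly ATAC2, ATAC5 and ATAC6, against 6.66%, and 9 (34.6%) were called in 1 library, against 40.9%. ATAC2, ATAC5 and ATAC6 had the longest peak lists, between 28969 and 32280 peaks, and between 18 and 21 peaks near the 8 genes. The other 4 libraries had lists of 15188 to 24510 peaks and 8 to 12 peaks near the genes. The number of peaks near these genes thus moved with the length of the list, whose part in it was not tested.

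**Figure D4:**
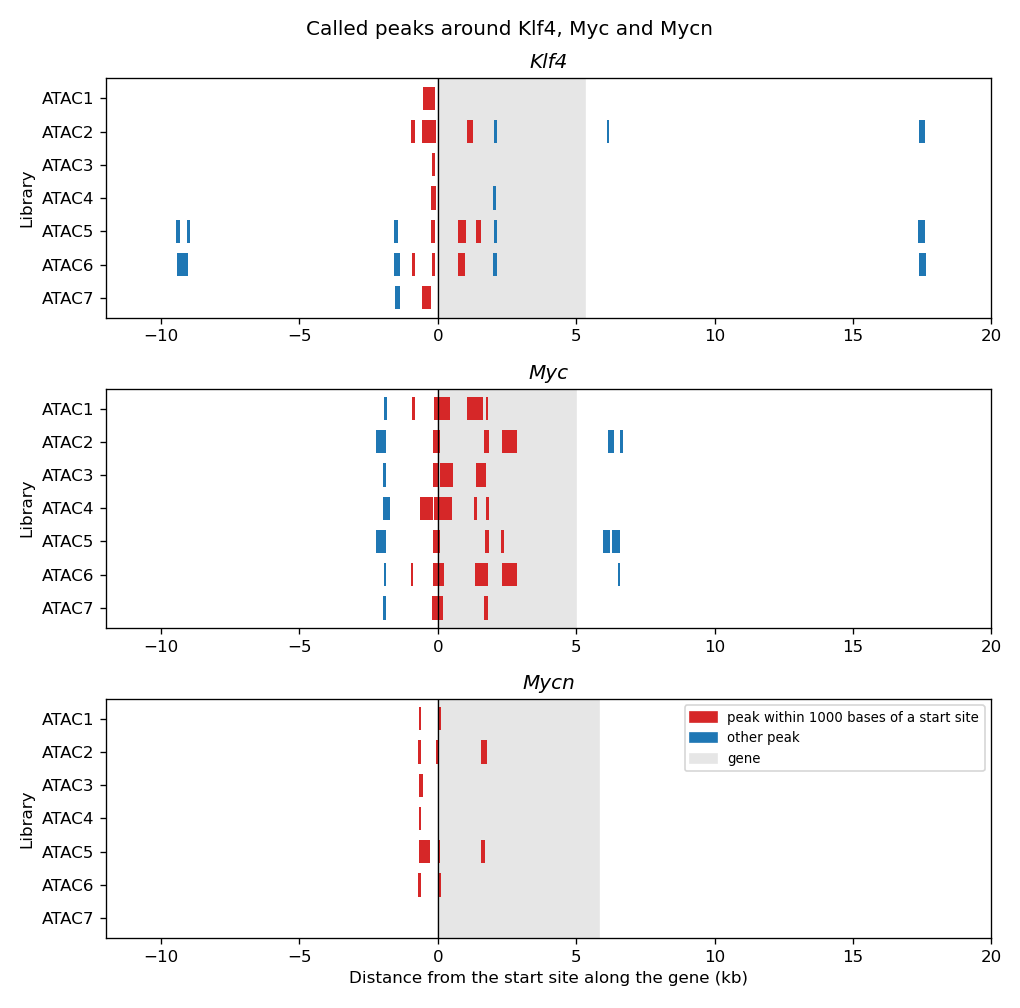
Called peaks around *Klf4*, *Myc* and *Mycn* by library (vertical axis) and distance from the 5'-most protein-coding start along the gene in kb (horizontal axis). Red blocks are peaks within 1000 bases of any annotated start of the gene, blue blocks other peaks and the grey band the gene; *Myc* shows 3 columns called in all 7 libraries, *Klf4* 1, and *Mycn* has no block in ATAC7.

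Besides its promoter, *Klf4* had a peak 17336 to 17634 bases downstream of the start site in ATAC2, ATAC5 and ATAC6 only. Its reads were 146 against 43 in ATAC2, 200 against 44 in ATAC5 and 140 against 43 in ATAC6, with folds of 5.36, 7.78 and 5.13. The region, chr4:55527713-55528011, is intergenic and 6547 bases from the nearest start site, that of *Gm12507*. It was still called in the same 3 libraries when each list was shortened to the length of the shortest.

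A region 1355 to 1573 bases upstream of *Klf4* was called in ATAC5, ATAC6 and ATAC7, with folds of 23.6, 17.7 and 8.70, and it lost ATAC6 at equal list length. Another region, 8988 to 9444 bases upstream, was called in ATAC5 and ATAC6, with best folds of 18.1 and 10.4, and in no library at equal list length. A peak over a coding exon of *Klf4*, 1981 to 2150 bases into the gene, was called in ATAC2, ATAC4, ATAC5 and ATAC6, with folds of 3.13 to 4.54. It was called in no library at equal list length or at a fold of at least 5. ATAC1 and ATAC3 had the promoter peak of *Klf4* and no other peak within 20 kb.

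*Myc* had 3 regions called in all 7 libraries. One lay over the start site, from 652 bases before to 537 after it. Another lay 1065 to 1854 bases into the gene, centred in an intron, and overlapped a further annotated start of *Myc*. Its best fold per library was 5.22 to 10.8. The third lay 1737 to 2249 bases upstream.

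At that upstream region of *Myc*, ATAC1 had 169 reads against 14 in Input, a fold of 14.8 (8.60 to 27.7). ATAC2 had 221 against 15, a fold of 23.3 (13.8 to 42.3), and ATAC3 had 95 against 11, the lowest fold, at 8.71 (4.66 to 18.0). ATAC4 had 96 against 9, a fold of 12.1 (6.10 to 27.2). ATAC5 had the highest fold, 31.4 (19.6 to 53.6), with 330 against 18. ATAC6 had 335 against 18, a fold of 29.3 (18.3 to 50.1), and ATAC7 had 102 against 7, a fold of 16.1 (7.53 to 41.0). ATAC5 and ATAC6 lay above ATAC3 without overlap of the intervals, and ATAC1, ATAC2, ATAC4 and ATAC7 overlapped with both ends.

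The 44 bases that the peaks of all 7 libraries share at this upstream region are shown because they are the common core of a distal region called everywhere. They lie at chr15:61815022-61815065, are printed on the plus strand with CpG in capitals, and hold 1 match of the GC box and none of the other 3 motifs.
Myc upstream core: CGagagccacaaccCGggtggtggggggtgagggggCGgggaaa

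Downstream of *Myc*, a region 5964 to 6569 bases from the start site was called in exactly ATAC2, ATAC5 and ATAC6, with best folds of 18.5 to 26.1 and 5 to 13 Input reads under the peaks. A region over a coding exon, 2305 to 2879 bases into the gene, was called in the same 3 libraries, with best folds of 5.57 to 6.80. Neither was called in any library once the lists were shortened to equal length. A second *Mycn* region at the start site itself was called in ATAC1, ATAC2, ATAC5 and ATAC6, with folds of 4.38 to 9.75, and a region over its coding exon in ATAC2 and ATAC5, with 3.26 and 3.92. The first of these *Mycn* regions kept its 4 libraries at equal list length, and the other was called in none. The coding-exon regions of *Myc* and *Mycn* lay 274 and 258 bases from a further annotated start of their gene. Their peaks thus count as start-site peaks.

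The peaks within 20 kb of the other 5 genes lay mostly at neighbours. *Pou5f1* lies at chr17:35642982-35647721 on the plus strand. Its only region, chr17:35653584-35654330, covered start sites of *Cchcr1* and *Tcf19* and was 7254 to 7571 bases from the nearest start site of *Pou5f1*. The best fold there was lowest in ATAC3 (7.65) and ATAC7 (9.40), then 13.1 in ATAC4, 15.4 in ATAC1, 15.7 in ATAC2 and 26.5 in ATAC5, and highest in ATAC6 (53.8). The reads reached 1129 in ATAC6, against 33 in Input. The neighbouring promoter was thus called in all 7 libraries, and the start site of *Pou5f1* in none.

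*Lin28a*, at chr4:133559245-133574756 on the minus strand, had the same pattern. Its only region covered or lay within 30 bases of the start site of *Dhdds*, 17594 to 17888 bases from its own start. The best fold there was 8.45 in ATAC3, 8.80 in ATAC2, 10.03 in ATAC7, 12.6 in ATAC4 and 14.7 in ATAC1, and it reached 24.7 in ATAC6 and 25.5 in ATAC5. At equal list length this region was lost in ATAC2. The start site of *Lin28a* itself had no call in any library.

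*Nanog*, at chr6:122657507-122664651 on the plus strand, had 1 peak within 20 kb, in ATAC2. It lay 17653 bases upstream with 65 reads against 7 in Input, a fold of 14.7 (6.73 to 37.9). Its rank was 27541 of 32280, and it was lost at equal list length. In the other 6 libraries the nearest peak was 32513 to 34976 bases away, and nearest to start sites of *Slc2a3*.

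*Sox2*, at chr3:34548927-34551383 on the plus strand, was the gene with no peak within 20 kb in any library. The nearest peak was 69116 bases away in ATAC2, with 52 reads against 3, and 138983 bases away in ATAC6, with 45 against 7. In the other 5 libraries it was 568636 to 568654 bases away, at the start site of *Dnajc19*. No peak was thus called within that distance on either side of *Sox2* in these 5 libraries.

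*Sall4*, at chr2:168573832-168593443 on the minus strand, had peaks within 20 kb in ATAC5 alone. There were 2, with folds of 4.38 and 5.71, the first over a coding exon of *Atp9a* and the other in its intron, within 13 bases of a start site of that gene. They were 13856 and 14049 bases from the nearest start site of *Sall4*, and neither was called at equal list length. In the other libraries the nearest peak was 126960 to 187388 bases away.

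In the wider pluripotency network, of 24 listed genes, 5 (20.8%) had a start-site peak in at least 1 library and 1 (4.17%) in all 7, against the 56.9% and 37.0% of all protein-coding genes given above. The list held 20 low CpG genes, 3 of them with a call and none in all 7 libraries, against 29.2% and 12% of that class. Of its 4 high CpG genes 2 had a call and 1 had one in all 7, against 91.3% and 68.0%. The 5 genes fell to 3 when a fold of at least 5 or equal list lengths were required. *Tbx3*, a T-box factor also used in limb and mesenchyme, was called in all 7 libraries with folds of 3.89 to 10.9. *Tet1*, which oxidises 5-methylcytosine, was called in ATAC2, ATAC5 and ATAC6 with folds of 9.32 to 12.1, on 45 to 92 reads.

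*Tfcp2l1*, a factor of naive pluripotency, was called in the same 3 libraries with folds of 3.12 to 6.02. *Lin28b*, the paralogue of *Lin28a*, had a peak in ATAC5 alone, with a fold of 3.54 on 62 reads. *Dnmt3l*, a cofactor of DNA methylation, had one in ATAC1 alone, with a fold of 2.98 on 51 reads. The other 19, including *Zfp42*, *Esrrb* and *Dppa3*, had none.

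All 9 listed partners and relatives of Myc in the Max network had a start-site peak, 7 of them in all libraries. All 9 were high CpG, a class of which 91.3% had a start-site peak in at least 1 library and 68.0% in all 7, so these counts lie near the background. *Max*, the obligate partner of Myc, had folds of 14.4 to 28.7, and *Mnt*, a repressor of the network, 3.38 to 29.7. *Mlx* was called in all but ATAC4, and *Mycl1*, the third Myc gene, in ATAC1, ATAC2, ATAC5 and ATAC6.

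The families of the factors were compared without the 8 genes. Of 16 other *Klf* genes 13 (81.2%) had a start-site peak, against 56.9% of all genes, and 10 (62.5%) had one in all libraries, against 37.0%, with *Klf6* the highest at 16.9 to 41.7. Of the 16, 12 were high CpG, and 11 of these had a peak and 10 had one in all libraries, against 91.3% and 68.0% of their class. *Klf2* and *Klf5*, which act with Klf4 in embryonic stem cells, had folds of 6.53 to 17.7 and 8.25 to 19.1. *Klf3*, *Klf9*, *Klf10*, *Klf11*, *Klf13*, *Klf15* and *Klf16* were also called in all 7 libraries, with folds from 2.84 (*Klf15*) to 32.7 (*Klf11*), *Klf7* in 6 and *Klf8* in 4. Of 17 other *Sox* genes 10 (58.8%) had one, against 56.9% of all genes, 8 of them among 12 high CpG genes, below the 91.3% of that class, and 2 (11.8%) had one in all libraries, against 37.0% of all genes and 68.0% of high CpG genes. These were *Sox4* (folds of 8.52 to 17.9) and *Sox12* (3.91 to 13.4). *Sox9*, the chondrocyte factor, was called in all but ATAC3 and ATAC4, *Sox6* and *Sox8* in 4 libraries, *Sox5*, *Sox11*, *Sox13* and *Sox30* in 2 and *Sox7* in 1.

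Of 13 other *Pou* genes 6 (46.2%) had a start-site peak, against 56.9% of all genes, 5 of them among 9 high CpG genes, again below the 91.3% of the class, and 1 (7.69%), *Pou3f1*, had one in all libraries, against 37.0%. *Pou2f1*, the widely expressed Oct1, was called in all but ATAC5, *Pou2f2* in 5 libraries, *Pou4f1* in 4, *Pou6f1* in 3 and *Pou3f2* in 1. Of 3 other *Sall* genes *Sall3* was called in 4 libraries and *Sall2* in 3, which is 1 of 2 high CpG genes and the 1 low CpG gene, too few to set against the 91.3% and 29.2% of these classes.

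**Figure D5:**
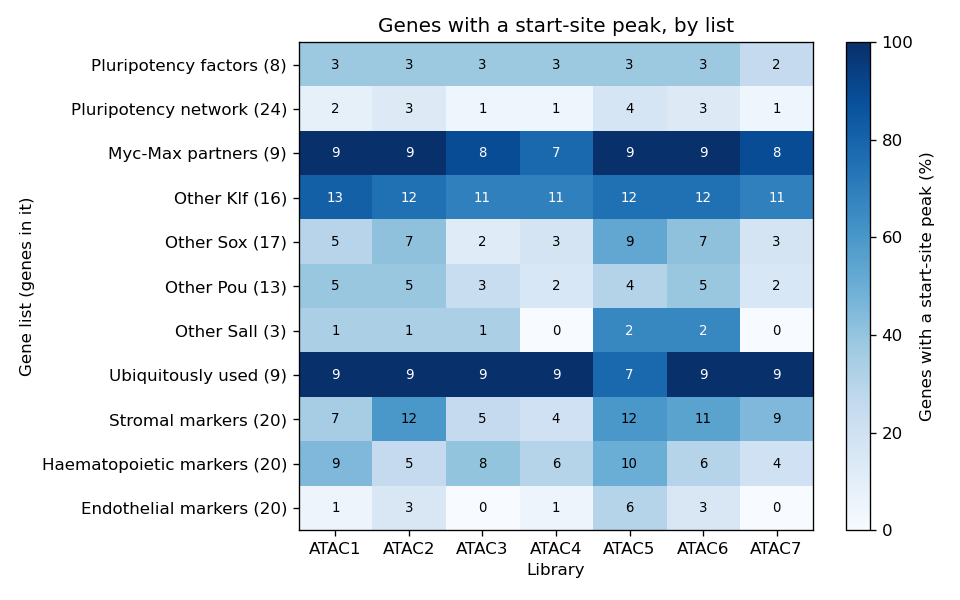
Number of genes with a start-site peak by list (vertical axis, with the number of genes) and library (horizontal axis), coloured by percent of the list. The pluripotency network has 1 to 4 of 24 genes and the 8 pluripotency factors 2 to 3, while ubiquitously used genes have 7 to 9 of 9.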

How the data were processed

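Open chromatin of 7 sorted stromal libraries was measured by ATAC-seq with 1 Input control. Bowtie was used by the authors for alignment to mm9, and CisGenome for peak calling in a two-sample analysis of every single library with Input, without pooling. The p-value limit was 1e-05, and peaks with an FDR under 0.01 were kept. The shift of reads for the transposase and the treatment of duplicates and multi-mapping reads are not given in the sources used here. Without the shift, peak edges could be off by some bases, and dropped multi-mapping reads would lower counts in repeated sequence. Since the deposited tables lack a header, the meaning of each column was read from its values. The deposited read counts are whole numbers for the library and for Input in the outer region of a peak. The authors' fold is a ratio, a scale factor times library reads over Input reads plus 0.01, with a scale factor of 1.01 to 1.71 by library. Columns of ranking statistics were not used beyond the rank. The tables hold called peaks only, so library depth is unknown. Called peaks had at least 21 to 28 reads by library, and the lowest best-ranked start-site peak of the 8 genes had 83.

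Genes and start sites came from GENCODE vM1 on NCBIM37 (mm9), and coordinates are as the files give them. Counts of genes were set against all 22367 protein-coding genes on chromosomes with peaks. CpG and GC content were available for 22359. Peaks near each other in different libraries were joined into 1 region where they overlapped. Fold intervals are Clopper-Pearson intervals at 95% of the library share of reads, turned into ratios. All folds share 1 Input library. Assignment of peaks to genes was tested on simulated peaks over 22367 genes, where 100% of 100 peaks planted within the start-site window were recovered. On the real ATAC4 list, 0 genes differed from bedtools. Python 3.11.15, numpy 2.4.6, pandas 2.3.3, scipy 1.17.1, matplotlib 3.10.9 and pysam 0.24.0 were used. The genes and all lists were chosen with earlier results of these data known. The genes named are the 8 factors, the genes of the network and families with a start-site peak (at most 12 a list), at most 2 genes of other lists, the 2 most alike genes for each factor with peaks in at least 4 libraries, and the nearest gene of each peak. Beyond this rule, a few genes were named after their values were seen: *Mlx*, *Mycl1*, *Zfp42*, *Esrrb* and *Dppa3*. One gene of the ubiquitously used list was left out and is not reported here. Alternatives changed the start-site window, the peak bounds, the threshold, the flank, the start sites and the offset.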

Additional observations from a re-analysis of the deposited data

How the results depend on the processing

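No paired analysis was possible because there was 1 library per title, which also left no replicate to leave out. *Pou5f1*, *Nanog*, *Sox2*, *Lin28a* and *Sall4* gained no start-site peak with a window of 2000 bases or with outer regions, the alternatives that could add one. *Myc* kept 7 libraries under these, within 500 bases, with peak centres, at a fold of at least 5, at equal peak number and with protein-coding starts only, and *Klf4* had 6 at a fold of at least 5, losing ATAC4. *Mycn* had 3 libraries at a fold of at least 5 and 4 within 500 bases. At a fold of at least 5 the number of the 8 genes with a start-site peak in ATAC4 went from 3 to 1. The network genes with one went from 5 to 3 at that fold and to 3 at equal peak number. The other 67 recomputed counts and values stayed within 1.5 times of those reported, with 16 to 20 pairs at start sites and 27 to 42 pairs near the genes for flanks of 5 to 50 kb. With 1 added to Input reads the median fold of the 20 best-ranked start-site peaks was 7.65 in place of 7.77. The alternatives for single regions were chosen after seeing the data. The best-ranked *Mycn* peaks had 83 to 247 reads, and the 5th percentile of all called peaks was 43 to 59 reads by library.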
